A study of Mus musculus with 56 samples.

Results

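Here 8 genes of the aryl hydrocarbon (Ah) receptor system were followed across lung, liver and forestomach of mice gavaged with chrysene, a polycyclic aromatic hydrocarbon. They were Ahr, the receptor, Arnt, its partner, the chaperones Hsp90ab1 and Ptges3, the repressors Ahrr and Tiparp, and Slc46a3 and Xdh, which are known to be induced through the receptor. They were chosen by name, out of 20018 genes that could be named on the array from RefSeq accessions, and were measured by 15 probes. For each gene and tissue the probe with the highest mean Cy5 signal was used. The 56 arrays held 18 lung, 19 liver and 19 forestomach samples.

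All animals were adult male MutaMouse, a lacZ reporter strain, aged about 14 weeks. Vehicle controls (D0) received olive oil by oral gavage, and dosed mice received chrysene in olive oil at 17.5 (D1), 50 (D2) or 150 mg/kg per day (D3). Dosing was daily for 28 days and tissue was taken 72 h after the last dose. In lung there were 5, 5, 3 and 5 mice at D0, D1, D2 and D3, and in liver and forestomach 5, 5, 4 and 5. RNA of a mouse was labelled with Cy5 and a universal mouse reference RNA with Cy3, so a value is the log2 ratio of sample to reference for 1 probe. Each array was 1 RNA extract from a random section of 1 tissue of 1 mouse, so fewer cells of a type and less RNA per cell cannot be told apart. Spread between arrays of a group covers mouse, section and array together.

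The labelled tissues carried their defining transcripts. The mean log2 ratio of 5 alveolar type 2 cell genes was 5.39 to 5.88 over the lung arrays, that of 7 hepatocyte genes was 6.71 to 7.09 over the liver arrays, and that of 9 keratinocyte genes was 4.55 to 6.97 over the forestomach arrays. Forestomach pieces also held glandular stomach transcripts to differing extents (0.31 to 6.80, with medians of 5.66, 1.09, 5.44 and 1.64 at D0, D1, D2 and D3), pancreatic acinar transcripts (-0.13 to 5.13) and hepatocyte transcripts (-0.01 to 3.25). Lung pieces of mice 17 and 19, both D3, held skeletal muscle transcripts (list means of 5.72 and 5.55), and the other lung arrays did not exceed -0.36. The same 2 pieces were high in keratinocyte (3.76 and 4.17, at most -0.33 in the other dose groups) and smooth muscle transcripts (2.70 and 2.41, at most 1.69). Mouse 19 was high in those of B cells (2.13) and T cells (1.89). Their adipocyte transcripts (3.89 and 3.69) stood less apart, with up to 3.50 at D2. Medians of the adipocyte list were 1.15, 1.39, 1.97 and 2.60 at D0, D1, D2 and D3, with ranges that overlapped. The part of these transcripts in the lung results was not tested beyond leaving out both mice. The share of probes flagged well above background in Cy5 was 47.6 to 55.2% per array in lung, 33.2 to 45.2% in liver and 18.1 to 50.2% in forestomach, where the 7 arrays of 1 slide (slide 1) had 39.0 to 50.2% and the other 12 had 18.1 to 33.4%. In lung all 5 D0 arrays, and no dosed array, lay in the first column of their slides, so column and dosing cannot be told apart there. In liver and in forestomach 4 of the 5 D0 arrays lay in that column.

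The Ah receptor waits in the cytoplasm in a complex with the heat shock protein Hsp90 and the cochaperone p23, which is encoded by Ptges3. A planar aromatic ligand releases it to the nucleus, where it pairs with Arnt and binds DNA at the core GCGTG of a response element, and genes of xenobiotic metabolism such as Cyp1a1 are transcribed. Ahrr and Tiparp are themselves induced and feed back: Ahrr lacks a transactivation domain and competes for Arnt, and Tiparp is an ADP-ribosyltransferase that attaches ADP-ribose to the receptor. Slc46a3 encodes a lysosomal membrane transporter, and Xdh encodes xanthine oxidoreductase, the last enzyme of purine breakdown to uric acid.

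The start regions of 5 of the 8 genes (Arnt, Ahrr, Tiparp, Ptges3 and Slc46a3) were in the RefSeq table used here (build GRCm38.p6, 250 bases before to 50 bases after the start of the gene). They were searched for GCGTG on both strands, that is, for GCGTG or its reverse complement CACGC, and 32.4% of 32851 such regions held at least 1. The regions of the repressors Ahrr and Tiparp are shown because Ahrr is the gene whose arrays separated in lung and Tiparp is the other repressor, and that of Slc46a3 because it is the induced gene with the widest range across tissues. Capitals mark each core, and each run is on the strand of the gene, 5′ to 3′.
Ahrr, chr13:74292282-74292581, minus strand: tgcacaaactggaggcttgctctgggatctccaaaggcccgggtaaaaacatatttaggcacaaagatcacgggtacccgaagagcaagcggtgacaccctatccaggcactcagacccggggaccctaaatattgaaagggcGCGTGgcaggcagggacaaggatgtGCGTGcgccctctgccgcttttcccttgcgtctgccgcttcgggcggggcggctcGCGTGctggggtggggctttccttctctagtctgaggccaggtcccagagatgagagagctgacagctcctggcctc
Tiparp, chr3:65528197-65528496, plus strand: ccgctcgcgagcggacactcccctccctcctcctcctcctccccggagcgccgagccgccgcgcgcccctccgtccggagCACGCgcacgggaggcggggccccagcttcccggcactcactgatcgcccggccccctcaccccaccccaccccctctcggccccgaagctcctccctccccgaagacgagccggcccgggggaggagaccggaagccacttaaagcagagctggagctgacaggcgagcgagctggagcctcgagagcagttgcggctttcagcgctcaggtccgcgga
Slc46a3, chr5:147894766-147895065, minus strand: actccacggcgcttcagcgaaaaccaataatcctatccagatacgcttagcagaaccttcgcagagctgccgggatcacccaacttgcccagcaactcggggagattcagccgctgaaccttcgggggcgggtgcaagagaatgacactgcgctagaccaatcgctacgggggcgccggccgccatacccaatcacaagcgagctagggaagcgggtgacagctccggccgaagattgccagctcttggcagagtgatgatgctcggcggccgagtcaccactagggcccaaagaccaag
Ahrr held 3 cores, starting at -107, -82 and -27 from the start of the gene, a number reached by 3.91% of all the regions. Tiparp held 1, at -170, on the other strand. The region of Slc46a3 held none of these letters. Arnt held 1, at -29, and Ptges3 held 2, at -213 and -21. A match of 5 letters is a description of the sequence and not a binding site.

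Vehicle-treated mice gave the levels of the 8 genes without chrysene. For this comparison each gene had 1 probe in all tissues, and a pair of tissues was called different where limma, fitted on all 56 arrays, gave a fold of 1.5 or more and a p of 0.05 or less after Benjamini-Hochberg adjustment. Each slide held arrays of only 1 tissue, so tissue and slide cannot be told apart in these comparisons. Slc46a3 stood highest in liver, Ahr in lung, and Tiparp lowest in liver. Between liver and lung 6 of the 8 genes were past both limits, and so were 46.0% of all 32854 probes tested. Between forestomach and lung it was 6 of 8 against 37.6% of 32699 probes, and between forestomach and liver 4 of 8 against 41.0% of 29775 probes. The median absolute difference of the 8 genes was 0.78, 0.80 and 0.52 on the log2 scale in the 3 pairs, beside 0.53, 0.42 and 0.46 over all probes tested.

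Ahr in the 5 vehicle lungs was 1.98, 2.26, 1.503, 2.09 and 1.09 relative to the reference. In the 5 vehicle livers it was 1.23, 0.11, 1.29, 0.89 and 0.89, and in the 5 forestomachs 0.05, -0.15, -0.17, -0.08 and -0.44. The forestomachs lay below all livers and lungs, and lung and liver overlapped. The order was lung (1.78 ± 0.48, SD, n = 5), liver (0.88 ± 0.47) and forestomach (-0.16 ± 0.18), and each step passed both limits: liver was 0.90 lower than lung (SE 0.18, adjusted p = 2.21e-05) and forestomach 1.04 lower than liver (SE 0.18, adjusted p = 2.19e-06). Arnt, which forms the DNA-binding pair with Ahr and also serves the hypoxia-inducible factors, followed the same order, at 0.21 ± 0.10, -0.09 ± 0.16 and -0.52 ± 0.08 (n = 5 each). The difference between forestomach and lung, -0.73, was a fold of 1.66 (SE 0.08, adjusted p = 2e-10), and the other pairs passed the adjusted p but were under 1.5-fold. The dimmer second probe of Arnt went the other way, 0.33 higher in liver than in lung (adjusted p = 0.0161) and 0.39 higher in forestomach than in lung (adjusted p = 0.00548), so the order of Arnt holds for 1 probe only.

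Hsp90ab1 was highest in lung, and so was Ptges3 in its main probe but not in all of its probes. Hsp90ab1, the constitutive cytosolic Hsp90, was 0.31 ± 0.32 in lung, -0.43 ± 0.12 in liver and -0.73 ± 0.34 in forestomach (SD, n = 5 each). Lung was past both limits against each of the other tissues (folds of 1.67 and 2.06, adjusted p = 0.000551 and 4.61e-06), and liver and forestomach, which are neighbours in that order, did not differ beyond their spread (difference -0.31, SE 0.19, adjusted p = 0.151). Ptges3 was -0.29 ± 0.12 in lung, -0.65 ± 0.27 in forestomach and -1.09 ± 0.13 in liver. Only lung against liver passed both limits (fold of 1.75, adjusted p = 1.32e-07), with differences of -0.07, -0.35 and -0.83 in the other probes. Those 3 probes were higher in forestomach than in liver, by 0.46 to 0.63, as was the main probe by 0.44. They disagreed on forestomach against lung, with 0.39, 0.23 and -0.20 (adjusted p = 0.0042, 0.133 and 0.18).

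Tiparp was lowest in liver in both of its probes. The vehicle values in lung were -0.56, -0.78, -0.73, -0.86 and -0.64, and in liver -2.75, -2.34, -2.46, -2.27 and -2.71. The sets did not overlap, and the difference of -1.79 (SE 0.15, adjusted p = 2.64e-15) was a fold of 3.47, with -1.95 in the second probe. Forestomach lay between them at -1.19 ± 0.40 (SD, n = 5), past both limits against liver (difference 1.31, adjusted p = 6.06e-11) and 1.39-fold below lung (adjusted p = 0.0044). Ahrr, the other repressor, was not well above background in any vehicle lung or liver and in 2 of 5 vehicle forestomachs. So few arrays above background give no fold between tissues for Ahrr, and its 2 places among the counts past both limits, for forestomach against lung and against liver, rest on 2 of 5 forestomachs.

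Slc46a3 had the widest span. In vehicle liver it was 3.63, 3.74, 3.65, 3.58 and 3.52, and in vehicle lung 0.56, 0.81, 0.59, 0.72 and 0.48. In forestomach it was -0.69, -1.20, -0.67, -0.63 and -1.25, well above background in 2 of the 5. No array of 1 tissue reached the range of another. Liver was 7.95-fold above lung (difference 2.99, SE 0.18, adjusted p = 2.65e-20). Forestomach was below liver (adjusted p = 2.16e-27) and below lung (adjusted p = 3.59e-10), and no fold is given for it because 3 of its 5 arrays were not well above background. Xdh was 0.60 ± 0.28 in liver, 0.53 ± 0.50 in forestomach and -0.08 ± 0.53 in lung. Liver and forestomach did not differ beyond their spread (difference -0.08, SE 0.25, adjusted p = 0.795), and each was above lung by just over the fold limit (1.61 and 1.52, adjusted p = 0.0127 and 0.0304). These calls for Xdh did not hold in all alternatives. With each array centred on its median in place of loess, the difference between forestomach and lung was -1.70, where the median of all probes tested was -0.95 in place of 0.00.

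**Figure D1:**
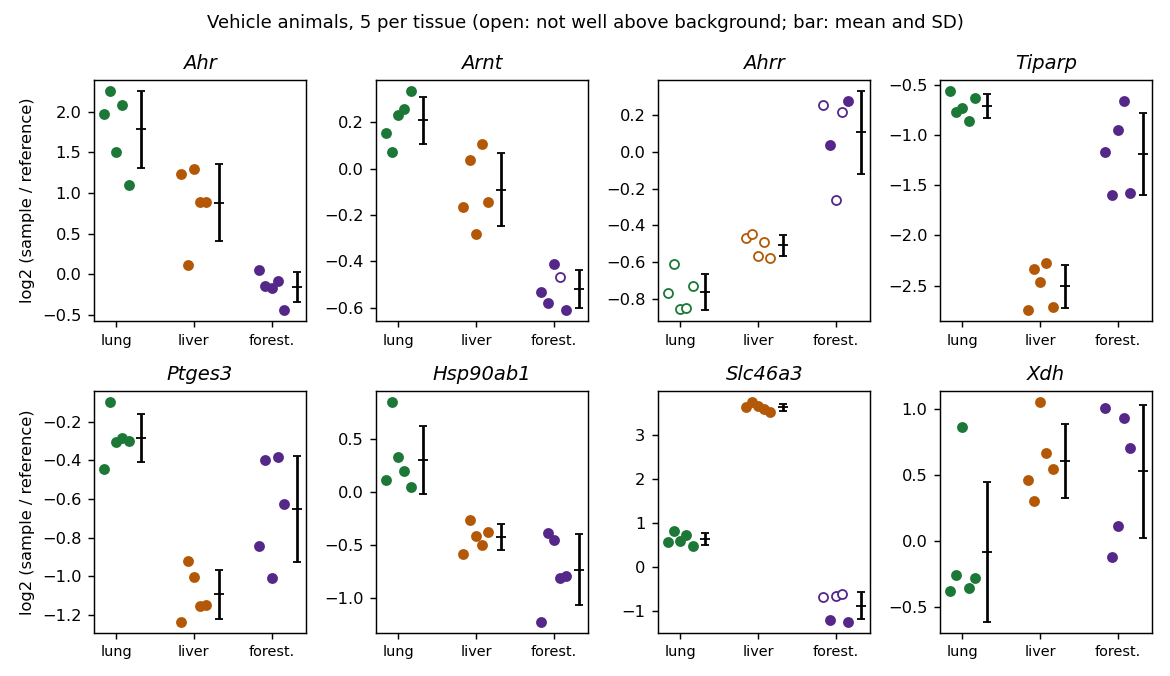
Log2 ratio of sample to reference of the 8 genes in vehicle-treated lung, liver and forestomach. Points are mice (n = 5 per tissue, open where not well above background) and bars are mean and SD. Slc46a3 in liver (3.52 to 3.74) and Tiparp in liver (-2.75 to -2.27) lie apart from the other tissues.

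Chrysene was compared with vehicle in each tissue to ask whether the receptor, its partners, its repressors and its induced genes had moved 72 h after the last dose. Ahrr in lung was the only member past an adjusted p of 0.05 in any tissue or dose. Its probe was not well above background in any vehicle lung, so it had passed the filter on dim probes only through the dosed lungs. Its filtered p-values in lung and the counts that hold it are therefore a description. In lung 1 of 8 members passed for the mean of the 3 doses, where 0.0635% of 31496 probes did, and 1 of 8 at D3, where 0.34% of probes did. For a linear trend over the dose steps it was again 1 of 8 (Ahrr, adjusted p = 0.0347 in limma), beside 0.686% of probes. The trend call was lost with median centring, Cy5 alone, the slide as a block, array column as a covariate, array weights, dose in mg/kg, probes well above background on every array (where Ahrr is not tested), without mice 17 and 19, and without any of 10 of the 18 mice (1, 2, 3, 4, 5, 12, 13, 17, 19 or 20). At D1 and at D2 no member passed, and 0% of probes did. In liver none of the 7 members tested passed at D1, D2, D3, for the mean of the doses or for the trend, and in each of these comparisons 0% of 24769 probes did. In forestomach none of 8 passed, beside 0% of 27527 probes at D1, 0% at D2, 0.00727% at D3, 0% for the mean of the doses and 0.0545% for the trend. No member reached the adjusted p and a fold of 1.5 together in any comparison with vehicle.

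Counts at an unadjusted p of at most 0.05 are given with the share of all probes. In lung 2 of 8 members, Ahrr and Ptges3, were under it at D3, beside 16.1% of all probes, and for the trend, beside 17.3%. Ahrr alone was under it at D1 (5.88% of probes), at D2 (6.12%) and for the mean of the doses (9.86%). In liver it was 0 of 7 at D1 (3.61% of probes), D2 (3.78%) and D3 (4.78%), for the mean of the doses (4.31%) and for the trend (5.41%). In forestomach 1 of 8, Arnt, was under it at D2 (7.54%), and 0 of 8 at D1 (4.17%), at D3 (9.24%), for the mean of the doses (9.25%) and for the trend (9.18%). The median difference of the members between all dosed and vehicle arrays was 0.05 in lung, -0.02 in liver and -0.02 in forestomach, and that of all probes was 0.00, 0.00 and -0.01.

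Ahrr in the 5 vehicle lungs was -0.77, -0.61, -0.85, -0.85 and -0.73. At D1 it was -0.39, -0.54, -0.29, -0.40 and -0.29, at D2 -0.38, -0.42 and -0.32, and at D3 -0.40, -0.40, -0.36, -0.19 and -0.27. All 13 dosed lungs lay above all 5 vehicle lungs, and the 3 dose groups overlapped each other. Over all probes tested in lung, 0.124% had every dosed array on 1 side of every vehicle array. The mean reading was -0.76 in vehicle and -0.36 in dosed lungs.

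The signal behind these readings was faint. Ahrr was well above background in 0 of the 5 vehicle lungs and in all 13 dosed lungs. The vehicle level is therefore a bound: Ahrr was at least 1.23-fold higher at D1, at least 1.17-fold at D2, at least 1.31-fold at D3 and at least 1.25-fold over all doses. The adjusted p in limma was 0.0377 for the mean of the doses, 0.0159 at D3, 0.157 at D1 and 0.57 at D2. Ahrr had passed the filter only through the dosed lungs, so these values, and the filtered calls kept or lost below, are a description. With no filter on dim probes, over 55681 probes, it was 0.0476 for the mean of the doses. After subtraction of the local background the mean Cy5 signal was 12.3 (range 4 to 20) in vehicle lungs, 42.7 (35 to 47) at D1, 29.7 (24.5 to 37) at D2 and 49.0 (38 to 60) at D3, and the ranges of vehicle and dosed lungs did not meet. The reference channel on the same spots was 48.2, 54.0, 47.3 and 56.9. On each of the 3 slides the mean dosed reading lay above the mean vehicle reading. With the column of the array on its slide as a covariate the adjusted p was 1, with each array centred on its median 0.121, with normexp background correction 0.0562, and with the slide as a block 0.0705. Without mice 17 and 19, whose lung pieces held skeletal muscle transcripts, the D3 call was lost (adjusted p = 0.132, with 3 D3 lungs left) and that for the mean of the doses was kept (0.033), and leaving out 1 mouse at a time gave adjusted p from 0.0138 to 0.199 for the mean of the doses. A second Ahrr probe stayed at background on every array of the 3 tissues.

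**Figure D2:**
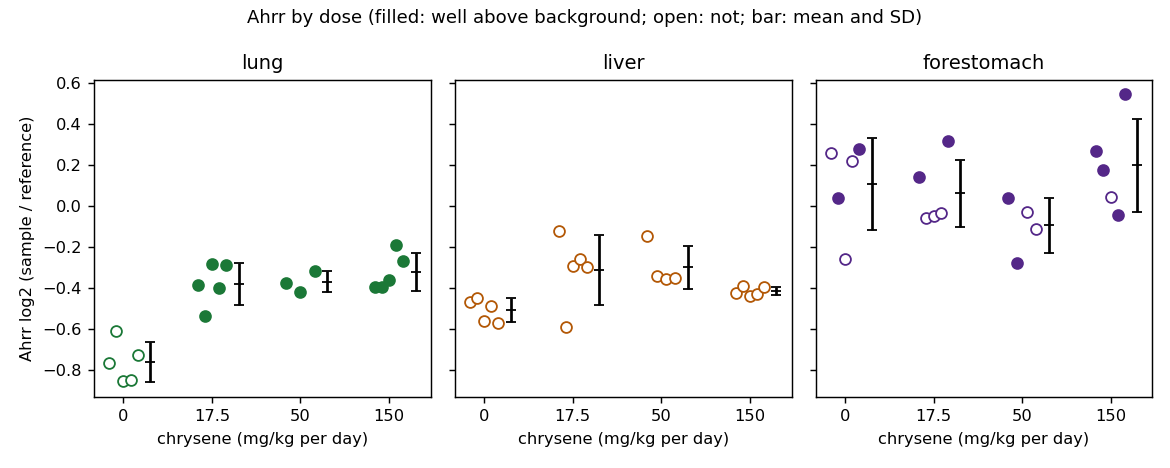
Log2 ratio of Ahrr by chrysene dose (mg/kg per day) in lung, liver and forestomach. Filled points are arrays where the probe was well above background, open points are arrays where it was not, and bars are mean and SD. The 13 dosed lungs (-0.54 to -0.19) lie above the 5 vehicle lungs (-0.85 to -0.61).

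In liver no array of 19 read Ahrr well above background, so no level or fold is given. The readings at background there were -0.57 to -0.45 in vehicle and -0.59 to -0.12 in dosed livers, and 13 of the 14 dosed livers read above all 5 vehicle livers. That order is of readings at background and is no measure of Ahrr. The share of all probes with such an order was not counted. In forestomach Ahrr was well above background on 10 of 19 arrays, among them all 7 of slide 1 and none of the 7 of slide 3, and the groups overlapped. Dosed and vehicle forestomachs gave an adjusted p of 0.988, and with 2 of 5 vehicle arrays well above background no size is given. For the difference in the dosed effect between forestomach and lung 0 of 8 members and 0.147% of probes passed. The adjusted p of Ahrr was 0.0522 there, and 0.0436 with the mouse as a replicate block, which uses that the tissues came from the same mice. It ran from 0.0198 to 1 over the other settings with every mouse kept, and no size is given because the vehicle lungs were at background. Between liver and lung it was 0 of 8 members and 0% of probes, and between forestomach and liver 0 of 8 and 0.178%.

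Tiparp, the second repressor, lay within its vehicle range in nearly all dosed lungs. The vehicle lungs spanned -0.86 to -0.56 and the 13 dosed lungs -0.89 to -0.45, with 1 above and 1 below. The difference for the mean of the doses was -0.01 (95% interval -0.14 to 0.13) in lung, 0.10 (-0.10 to 0.30) in liver and -0.05 (-0.36 to 0.26) in forestomach, where its other probe was the brighter and was used. In lung the other probe was 0.26 lower at D3 (unadjusted p = 0.0147, adjusted p = 0.219), a value the first probe (-0.02) did not share.

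Ahr was not distinguishable between dosed and vehicle tissue. In lung the vehicle values spanned 1.09 to 2.26, the D1 lungs were 1.95 to 2.19, the D2 lungs 1.98 to 2.38, and the D3 lungs 2.38, 1.48, 2.28, 1.47 and 2.42. The low D3 values were those of mice 17 and 19. The difference for the mean of the doses was 0.28 (95% interval -0.10 to 0.67, adjusted p = 0.653) in lung, -0.02 (-0.33 to 0.29) in liver and -0.07 (-0.26 to 0.12) in forestomach. The lung estimate varied by slide, at -0.29, -0.09 and 1.01.

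Arnt in lung and liver differed from vehicle by -0.01 (95% interval -0.17 to 0.15) and 0.05 (-0.08 to 0.18). In forestomach the vehicle values were -0.53, -0.58, -0.41, -0.47 and -0.61, and the D2 values were -0.17, -0.26, -0.29 and -0.14. All 4 D2 forestomachs lay above all 5 vehicle forestomachs, by 0.31 on average (SE 0.10, unadjusted p = 0.0075, adjusted p = 0.52), while D1 (-0.69 to -0.21) and D3 (-0.58 to -0.29) overlapped vehicle. Over all probes tested in forestomach, 2.18% had every D2 array on 1 side of every vehicle array. The other Arnt probe showed a D2 difference of -0.02. Across all dosed forestomachs no member had every dosed array on 1 side of every vehicle array, and 0.0727% of probes did. In liver it was 0 of 7 members and 0.0202% of probes.

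Ptges3 in the vehicle lungs was -0.45, -0.10, -0.30, -0.28 and -0.30, and at D3 it was -0.60, -0.56, -0.43, -0.73 and -0.60. Of the 5 D3 lungs 4 lay below all vehicle lungs. The D3 difference was -0.30 (SE 0.13, 95% interval -0.57 to -0.03, unadjusted p = 0.0303), which did not pass after adjustment (0.264). The other 3 probes of Ptges3 were lower at D3 too, by -0.16, -0.13 and -0.24, and in the last of these all 5 D3 lungs lay below all 5 vehicle lungs. These orders are a description, because the share of all lung probes with such an order at D3 was not counted. At D3 16.1% of all lung probes were at an unadjusted p of 0.05 or less. With array column as a covariate the D3 difference of the main probe was 0.14. For the mean of the doses Ptges3 was -0.19 (-0.42 to 0.03) in lung, -0.09 (-0.23 to 0.05) in liver and 0.00 (-0.26 to 0.26) in forestomach.

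Hsp90ab1 spread widely within groups. The dosed lungs ran from -0.02 to 1.39 and the vehicle lungs from 0.05 to 0.85. The differences were 0.01 (95% interval -0.35 to 0.38) in lung, -0.07 (-0.26 to 0.12) in liver and 0.31 (-0.06 to 0.67, adjusted p = 0.66) in forestomach. In forestomach 7 of 14 dosed arrays lay above all vehicle arrays and the others did not. The share of all probes with such an order was not counted, and 9.25% were at an unadjusted p of 0.05 or less. The estimate for Hsp90ab1 was 0.46 on slide 1, 0.67 on slide 2 and 0.01 on slide 3.

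The induced genes did not separate either. Slc46a3 in dosed liver was 3.40 to 3.68 against 3.52 to 3.74 in vehicle liver, a difference of -0.03 with the narrowest interval of the set (-0.13 to 0.07). In lung it was 0.11 (-0.10 to 0.33). In forestomach the D3 values were -1.15, -1.12, -0.76, -1.69 and -2.01, and they overlapped the vehicle values (adjusted p = 0.66). Only 2 of 5 vehicle and 4 of 5 D3 forestomachs were well above background, so no size is given. The forestomach values followed the slide: the 7 arrays of slide 1 were -2.01 to -1.20, the 5 of slide 2 were -1.28 to -0.69, and the 7 of slide 3 were -0.93 to -0.50, and Slc46a3 was well above background on 7, 4 and 3 of them. Xdh differed by 0.09 (-0.34 to 0.51) in lung, 0.01 (-0.26 to 0.27) in liver and 0.16 (-0.35 to 0.67) in forestomach.

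**Figure D3:**
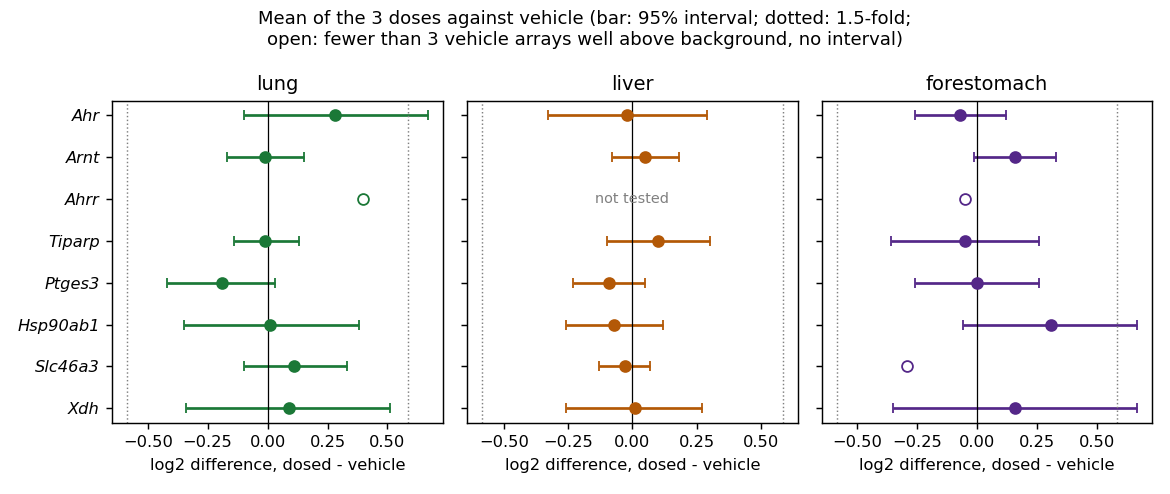
Difference in log2 ratio between all dosed and vehicle arrays for the 8 genes in each tissue, with 95% intervals from limma and dotted lines at 1.5-fold. Open points (Ahrr in lung and forestomach, Slc46a3 in forestomach) have no interval because fewer than 3 vehicle arrays were well above background, and Ahrr in liver was not tested. The intervals of the other members in lung include 0, from -0.42 to 0.03 for Ptges3 to -0.10 to 0.67 for Ahr.

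A further 48 genes around the receptor (other chaperones, Arnt relatives, coactivators and corepressors, induced enzymes, tryptophan and purine enzymes, and other Slc46 transporters) were read in the same fits. None of the 39, 42 and 39 tested in lung, liver and forestomach passed an adjusted p of 0.05 for the mean of the doses, with smallest values of 0.0948, 0.999 and 0.207. At an unadjusted p of 0.05, 2 were higher and 1 lower of 39 in lung, beside 9.86% of all probes in either direction. In liver 1 of 42 was higher, beside 4.31%, and in forestomach 7 were higher and 1 lower of 39, beside 9.25%. The median difference over these genes was -0.01, -0.03 and 0.09.

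Among the induced enzymes, Cyp1a1, the classical target of the receptor, was 1.66 ± 0.78 (SD, n = 5) in vehicle lung and 0.56 ± 0.29 (n = 13) in dosed lung. All dosed lungs lay below all vehicle lungs, the opposite order to Ahrr, with a difference of -1.08 (SE 0.23, adjusted p = 0.0948). Such a separation, in either direction, was seen in 0.124% of all probes tested in lung. Cyp1a1 was well above background on 15 of the 18 lung arrays, so the size of this difference is limited by background. Column cannot be told apart from dosing here either. Cyp1b1, a related monooxygenase, was 0.32 higher in dosed lung (adjusted p = 0.453). In liver Ugt1a6a, a glucuronosyltransferase, was 0.17 higher (adjusted p = 0.999), and Cyp1a1 was well above background on 3 of 19 arrays (adjusted p = 0.999).

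In forestomach 4 of 10 coactivators and corepressors were higher at an unadjusted p of 0.05, beside 9.25% of all probes in either direction, among them Ncoa3 by 0.61 (SE 0.17, adjusted p = 0.207 in limma) and Ncoa2 by 0.31 (adjusted p = 0.416). Cyp2s1, an epithelial monooxygenase, was 0.61 higher (adjusted p = 0.313). Cyp1a1 was well above background on 4 of 19 forestomach arrays (adjusted p = 0.912). The medians of the glandular stomach transcripts differed between the dose groups, with overlapping ranges, and their part in these values was not tested.

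The same mice gave all tissues, which allowed each gene to be compared between tissues of a mouse after the dose group means were removed. Of 22 relations, 2 passed a Benjamini-Hochberg adjusted permutation p of 0.05, both between lung and liver. Hsp90ab1 had r = 0.87 over 18 mice (permutation p = 5e-05, adjusted 0.0011) and rho = 0.82 (p = 0.00013, adjusted 0.00286), with r = 0.66 without the 2 mice farthest from the median. The mouse at the top was mouse 7 at D1, with 1.39 in lung and 0.03 in liver. Xdh had r = 0.76 (p = 0.00025, adjusted 0.00275) and rho = 0.71 (p = 0.00164, adjusted 0.018), with r = 0.61 without the 2 farthest. Mouse 3, a vehicle animal, was highest in both tissues, with 0.86 in lung and 1.05 in liver. Within slides, that is, after the slide means were removed, r was 0.85 for Hsp90ab1 and 0.70 for Xdh.

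Ptges3 came next (r = 0.60, p = 0.00737, adjusted 0.054) and fell to r = 0.25 without the 2 farthest mice, so it rested on those mice. Neither Hsp90ab1 nor Xdh had such a relation with forestomach (r of 0.13 to 0.15 for Hsp90ab1 and of -0.04 to 0.26 for Xdh).

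**Figure D4:**
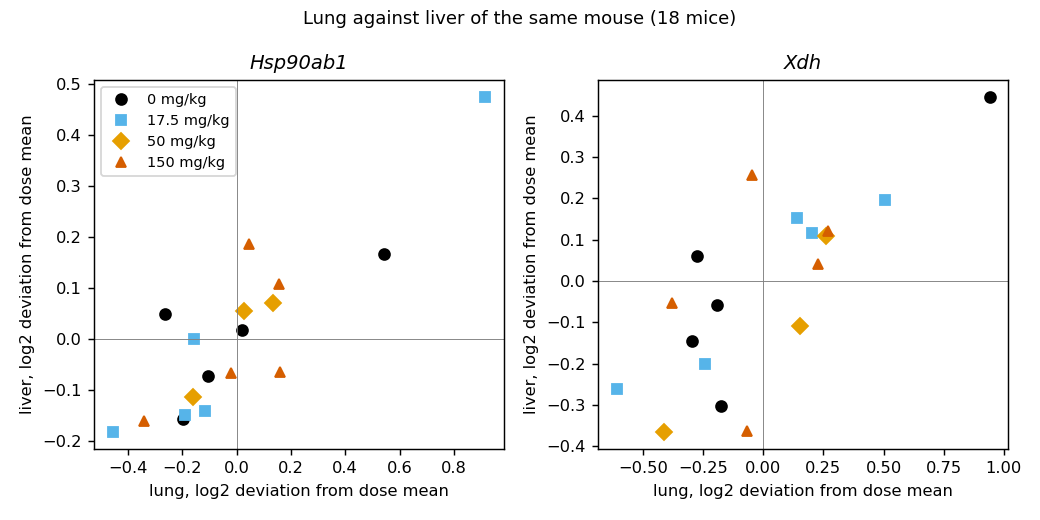
Hsp90ab1 and Xdh in liver against lung of the same mouse, each as the deviation in log2 ratio from the mean of the dose group (18 mice, shapes by dose). Mouse 7 lies at the upper right for Hsp90ab1 and mouse 3 for Xdh, and r is 0.87 and 0.76.

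Genes of the circadian clock's output (10 genes, Dbp and Per1 among them) varied between mice, with list means of -0.92 to 0.20 in forestomach, so the members were also set against the mean of that list within each tissue. Only 3 to 8 of the 10 genes were well above background on a forestomach array, and Slc46a3 was so on 14 of 19 arrays. Of 23 relations, 2 passed the adjusted permutation p of 0.05, both in forestomach over 19 arrays. Slc46a3 was higher where the list was higher (r = 0.78, p = 0.00016, adjusted 0.00368, and rho = 0.78, p = 0.00014, adjusted 0.00242, with r = 0.78 again without the 2 farthest arrays), but with slide means removed r was 0.30, so the relation did not hold within slides. Hsp90ab1 ran opposite to the list (r = -0.67, p = 0.00161, adjusted 0.0185, and rho = -0.75, p = 0.00021, adjusted 0.00242), with r = -0.59 without the 2 farthest arrays and -0.62 within slides. The share of probes above background moved with the slide as well, and its part in these relations was not tested.

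**Figure D5:**
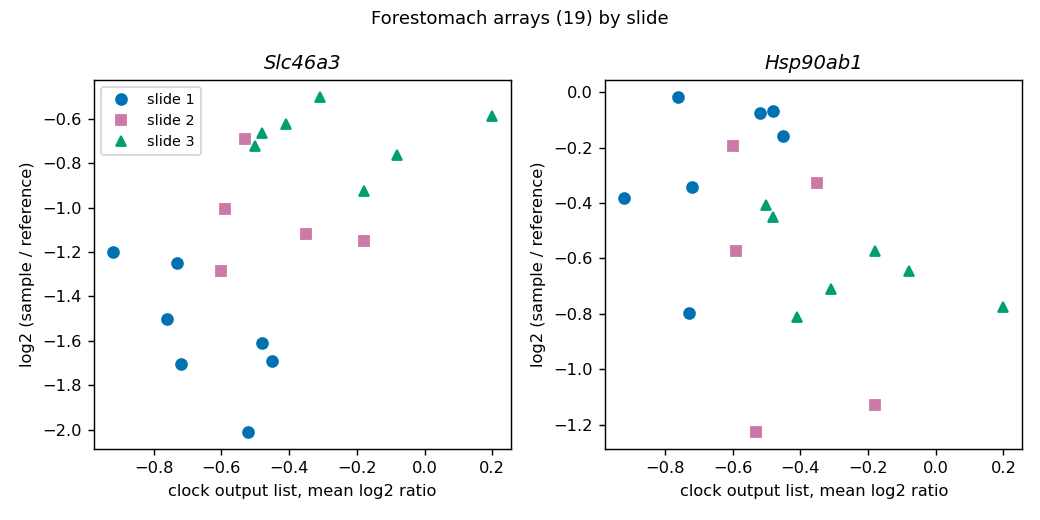
Log2 ratio of Slc46a3 and Hsp90ab1 in 19 forestomach arrays against the mean log2 ratio of 10 clock output genes, with shapes by slide. The 7 arrays of slide 1 hold the low Slc46a3 values (-2.01 to -1.20), and Hsp90ab1 is lower where the list is higher.

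Finally, for each member up to 3 named genes with the most similar pattern over arrays are given, with each tissue centred on its mean, among 11806 genes over 56 arrays (13455 genes over 37 lung and forestomach arrays for Ahrr). These r describe arrays that share slides and tissue pieces and carry no p. For Hsp90ab1 they were Hspd1 (0.74), H3c15 (0.72) and Hspa8 (0.71), and for Ptges3 Hsph1 (0.70) and Dnajb2 (0.70). Hspd1, Hspa8, Hsph1 and Dnajb2 encode heat shock proteins or their cochaperones. For Ahr they were Mospd2 (0.62), Tm4sf1 (0.59) and Prps2 (0.59), for Arnt Shc4 (0.65), Slc6a6 (0.64) and Cx3cl1 (0.62), for Ahrr Nudt13 (0.75), Smo (0.71) and Rab40b (0.68), and for Tiparp Cenpq, Nsmce1 and Rpl17 (0.79 each). For Slc46a3 they were Mrpl47 (0.84), Fggy (0.84) and Gfi1 (0.80), and for Xdh Mtmr3 (0.70), Nudt4 (0.66) and Cibar1 (0.65). For Slc46a3 the likeness lay in forestomach (r of 0.90 to 0.94) and not in liver (-0.06 to 0.43). For Tiparp r was 0.86 to 0.91 in forestomach and -0.07 to 0.42 in lung. For Xdh it was 0.82 to 0.93 in forestomach, 0.24 to 0.45 in lung and 0.27 to 0.43 in liver. The second Tiparp probe had r = 0.54 with the first and the second Arnt probe 0.04, below the genes named, while another Ptges3 probe had 0.87.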

How the data were processed

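RNA of 56 mouse tissue pieces was hybridised to two-colour Agilent arrays (59305 spots, of which 3671 were control spots and were left out). Per the file headers, images were read with Feature Extraction 10.7.3.1. The deposited value table gives the authors' log2 ratios of Cy5 (sample) to Cy3 (reference), normalized by loess. They correlated at 0.977 to 0.998 with a loess computed here from the median intensity of each channel, deposited in the scanner files, at slopes of 0.95 to 1, with array medians of -0.05 to -0.02, which settled scale and direction. The deposited files also give flags, a score of 0 or 1, for spots well above background. Of 55681 probes 26413 (47.4%) could be named from RefSeq accessions, giving 20018 genes. The members and lists were chosen with earlier results of these data known.

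Probes well above background in Cy5 on at least 3 arrays of a tissue were tested with limma 3.58.1 in R 4.3.3, in place of MAANOVA, which the study's methods used, with Benjamini-Hochberg adjustment over all probes tested. The limits were an adjusted p of 0.05 and, where stated, a fold of 1.5. Bounds for dim probes used, per array, the higher of the probe's own signal and the lowest signal among probes well above background, in Cy5 after loess and Aquantile. Correlations used 100000 permutations in SciPy 1.17.1. All 8 members are named, and from 48 further genes in each tissue at most 4 with the smallest p among those at an unadjusted p of at most 0.05, plus Cyp1a1. A few genes that this rule names are not reported here. Arrays of a mouse were paired by the mouse number in the labels (correlation across tissues 0.026). Precision is limited by 3 to 5 arrays per group. Alternatives were other normalizations, filters, covariates and probes, and each mouse left out. Within-slide differences and background-subtracted Ahrr signals were added after the data were seen.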

Additional observations from a re-analysis of the deposited data

Results flagged for a closer look

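In 84 groups of 4 or 5 arrays (1 member, tissue and dose each), 6 held an array whose gap to its nearest neighbour, over the range of the group, was beyond Dixon's 95% critical value. Chance gives this for about 1 in 20 groups. Mouse 7, at D1, appeared 3 times: its Hsp90ab1 was 1.39 in lung (the others 0.02 to 0.36) and 0.03 in liver (the others -0.63 to -0.44), and its Slc46a3 in lung was 0.85 (the others 0.58 to 0.65). Mouse 3, at D0, had an Xdh of 0.86 in lung, where the other vehicle lungs were -0.38 to -0.26. Mouse 9, at D1, had an Ahr of 0.33 in liver (the others 0.93 to 1.12). Mouse 13, at D2, had a Slc46a3 of 3.40 in liver (the others 3.62 to 3.65).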

How the results depend on the processing

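Of 1998 alternative values for the members, 1292 single values and 544 counts kept their direction and their side of the limits, 67 single values changed sign, 35 lost a call, 13 gained one, and 47 counts moved. The call of Ahrr in lung was the one that varied most among settings. It is a description, because the probe passed the filter only through the dosed lungs. Members past an adjusted p of 0.05 went from 1 to 0 at D3 with median centring, with probes well above background on every array (where Ahrr is not tested), with array column as a covariate and without mice 17 and 19. For the mean of the doses the count was 0 with normexp, median centring, the every-array filter, slide as a block and array column. For the trend it was 0 with median centring, Cy5 alone, the every-array filter, slide as a block, array column, array weights, dose in mg/kg and without mice 17 and 19. With array weights it was 1 at D1. Leaving out 1 mouse at a time gave 0 to 1 in each of these, and for Ahrr an adjusted p of 0.0138 to 0.199 for the mean of the doses (lost without any of 10 of the 18 mice: 1, 4, 5, 8, 9, 10, 12, 13, 17 or 20) and of 0.0119 to 0.0589 at D3 (lost without mouse 1 or 19). The causes were not tested.

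Mean-of-doses differences near 0 changed sign in lung as follows, none with a call. Arnt was 0.02 with loess from the scanner files or with normexp, 0.25 with median centring, 0.28 with array column, 0.03 with array weights and 0.03 without mice 17 and 19. Tiparp was 0.01 with normexp, 0.24 with median centring, 0.05 with Cy5 alone, 0.04 with array column, and 0.02 with array weights or without mice 17 and 19. Hsp90ab1 was -0.01 with the scanner loess, normexp, array weights or without mice 17 and 19, and -0.24 with array column. Ptges3 was 0.06 with median centring and 0.13 with array column (0.14 at D3), and Xdh -0.19 with array column. In liver Ahr was 0.01 and Slc46a3 0.04 with normexp, Slc46a3 0.03, Arnt -0.03 and Xdh -0.03 with Cy5 alone, Xdh -0.02 with median centring and -0.03 with array weights, Hsp90ab1 0.03 with array column, and Tiparp -0.02 in its other probe. In forestomach Ahr was 0.16 and Tiparp 0.12 with median centring, Ahrr 0.08 with Cy5 alone and 0.04 with array column, Tiparp 0.03 with array weights, and Arnt -0.05 in its other probe. Leave-one-out ranges that crossed 0 were -0.04 to 0.02 (Arnt), -0.04 to 0.03 (Tiparp) and -0.06 to 0.15 (Hsp90ab1) in lung, -0.21 to 0.08 (Ahr) and -0.07 to 0.12 (Xdh) in liver, and -0.10 to 0.02 (Tiparp) in forestomach.

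Median centring moved the median of all probes tested to 0.16 for dosed less vehicle lung, and between vehicle tissues to -0.62 for liver less lung, -0.95 for forestomach less lung and -0.17 for forestomach less liver. Between vehicle tissues it gave Ahrr -0.05 and Xdh -0.49 for liver less lung, Xdh -1.70 (adjusted p = 0.00292) for forestomach less lung, and Ptges3 -1.06 for forestomach less liver, where 2 members then passed both limits. Forestomach less liver was 0.28 with the scanner loess and 0.29 with normexp for Hsp90ab1, and 0.03 with array weights and -0.23 to 0.14 with 1 mouse left out for Xdh. For Xdh the call of forestomach over lung was lost with the scanner loess (0.37), normexp (0.39), Cy5 alone (0.41), the vehicle arrays alone (0.61) and without mouse 1, 4 or 5 (range 0.41 to 0.95), and that of liver over lung with normexp (0.56) and without mouse 4. For Ahrr, at background in vehicle lung and liver, the fold limit of forestomach over both was lost with median centring, and over liver also with normexp and without mouse 5.

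With the mouse as a replicate block, which pairs the tissues, 1 member (Ahrr, adjusted p = 0.0436) passed for the difference in dosed effect between forestomach and lung, and probes went from 48 to 100; it changed no other call. Array weights gave 1 as well (adjusted p = 0.0198), leaving out 1 mouse gave 0 to 1, and the other settings gave 0, with 0 probes past the adjusted p under median centring and with the spread taken within each tissue. Over the alternatives with every mouse kept, probes past the adjusted p in lung ranged from 0 to 136 (107 as reported) at D3. They ranged from 0 to 58 (20) for the mean of the doses and 0 to 285 (216) for the trend. In liver they ranged from 0 to 25 (0) for the mean of the doses. In forestomach they ranged from 0 to 64 (0) at D2 and 0 to 170 (2) at D3. For the mean of the doses there it was 0 to 7 (0), and for the trend 0 to 279 (15). Between vehicle tissues, probes past both limits ranged from 11001 to 18897 (12291) for forestomach less lung. For forestomach less liver they ranged from 6734 to 12502 (12195). With 1 mouse left out, probes past the adjusted p ranged in lung from 0 to 373 at D3, 0 to 58 for the mean of the doses and 39 to 500 for the trend. In forestomach they ranged from 0 to 10 at D3 and 0 to 115 for the trend. Depth limits Ahrr, and Slc46a3 in forestomach, where signals lay at the edge of background.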
